A study of Mus musculus with 12 samples.

Results

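Gene expression without Brg1 was compared with wild-type expression in mature medullary thymic epithelial cells. The comparison rests on 4 of the 12 arrays of the series: Brg1-/- mTEChi arrays 1 and 2 against Brg1+/+ mTEChi arrays 1 and 2, chosen by the titles of the samples. Wild-type and knockout arrays carry the same numbers, and arrays of 1 number are called a pair here, although no label says that they share an animal or day. The question was which genes differ in the same direction in both pairs.

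Medullary thymic epithelial cells (mTECs) transcribe many genes that are otherwise restricted to peripheral organs, so that developing T cells reactive to those products are deleted or diverted. Aire, a nuclear protein of mature mTECs with high surface MHC class II (mTEChi), drives a large share of this transcription. Brg1, encoded by Smarca4, is the ATPase of SWI/SNF (BAF) complexes, which slide and evict nucleosomes and make DNA accessible to transcription factors and polymerase.

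RNA was hybridised to single-colour Affymetrix mouse 2.0 ST arrays. All mice are labelled C57BL/6 and 4 weeks old, and all cells were sorted as live, UEA-binding, Epcam-positive thymic cells without CD45, with low Ly51 and with high (mTEChi) or low (mTEClo) MHC class II. The groups used were Brg1+/+ mTEChi and Brg1-/- mTEChi with 2 arrays each. Brg1+/+ mTEClo and Brg1-/- mTEClo have 1 array each, and an Aire line has Aire+/+ mTEChi and Aire-/- mTEChi with 2 arrays each and Aire+/+ mTEClo and Aire-/- mTEClo with 1 each. Which allele or Cre driver removed Brg1, and in which other cells of those mice, was not given in the sources used here. Nothing in the labels says that arrays 1 and 2 came from separate animals, so a p-value here covers only the spread between these samples, and that spread may be technical.

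Arrays differed more by number than by genotype. The median absolute difference between arrays 1 and 2 over the 22154 measured genes was 0.44 in Brg1+/+ and 0.345 in Brg1-/- cells on the log2 intensity scale, against 0.21 between genotypes within pair 1 and 0.27 within pair 2. Array medians lay between 5.07 and 5.32, with every array numbered 2 below every array numbered 1. Epcam, the epithelial marker of the sort, read 8.94 and 8.48 in Brg1+/+ and 8.95 and 8.54 in Brg1-/- mTEChi (log2 intensity, arrays 1 and 2). The 15 measured thymocyte genes summed to an intensity of 2876 on Brg1-/- array 2, against 788.8 to 1668 on the other 11 arrays. On that array Cd3d, a T cell receptor subunit gene, read 10.12, while the other Brg1 mTEChi arrays read 7.63 to 7.93. None of these 15 genes is among those that differed at least 2-fold in both pairs, and the part of thymocyte RNA in the other differences was not tested.

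One gene went against a uniform strain label. H2-Ea encodes the MHC class II E alpha chain and is listed by RefSeq, whose mouse reference is C57BL/6J, as a transcribed pseudogene. It read 4.33 on Brg1+/+ mTEChi array 1 but 11.42 on array 2, and 11.32 and 11.60 on both Brg1-/- mTEChi arrays. In mTEClo it read 4.35 in Brg1+/+ and 10.11 in Brg1-/- cells, and the 6 arrays of the Aire line lay between 3.98 and 5.89. The arrays of pair 1 therefore differed by 6.99 in H2-Ea on the log2 scale and those of pair 2 by 0.18. For this reason the values of both pairs are given separately throughout. A difference in genetic background cannot be told apart from the genotype within pair 1, nor within the mTEClo pair, where H2-Ea also differed. The arrays of pair 2 were near equal in H2-Ea, but whether they shared a background at other genes was not tested.

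**Figure D1:**
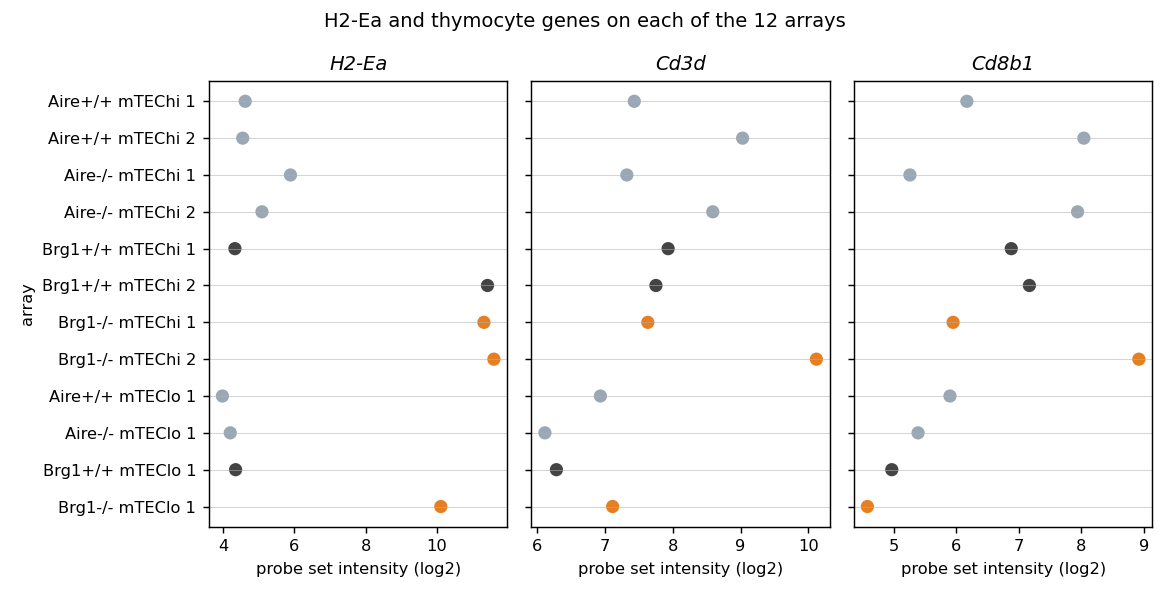
Levels of H2-Ea and of the thymocyte genes Cd3d and Cd8b1 on each of the 12 arrays (log2 intensity, 1 point per array; dark, Brg1+/+; orange, Brg1-/-; grey, Aire line). H2-Ea is above 10 on 4 arrays of the Brg1 line and below 6 on the other arrays, and Cd3d and Cd8b1 are highest on Brg1-/- mTEChi array 2.

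The targeted gene was lower in the knockout arrays. Smarca4 read 6.13 and 6.89 in Brg1+/+ and 5.88 and 5.44 in Brg1-/- mTEChi (log2 intensity, arrays 1 and 2). Both knockout arrays lay below both wild-type arrays (9.62% of all genes). Smarca4 was lower by 1.45 in pair 2 but only by 0.25 in pair 1, where the median absolute difference over all genes was 0.21. The mean difference was -0.85 ± 0.331 (limma SE; unadjusted p = 0.035, limma adjusted p = 1). In mTEClo it read 5.95 in Brg1+/+ and 5.47 in Brg1-/- cells. The position of the probes relative to the deleted part of the gene was not given in the sources used here, so the remaining signal does not measure how much functional Brg1 was left. In bulk RNA, fewer cells with a transcript and less transcript per cell cannot be told apart.

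Aire did not separate the groups. It read 7.96 and 9.50 in Brg1+/+ and 8.35 and 8.75 in Brg1-/- mTEChi, so that the knockout values lay between the wild-type values. The mean difference was -0.18 ± 0.539 (limma SE), higher by 0.39 in pair 1 and lower by 0.75 in pair 2. It was -0.95 without wild-type array 1 and 0.59 without wild-type array 2.

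No gene passed the limma test at an adjusted p under 0.05 (0 of 22154, 0.0%), and 301 genes (1.36%) had an unadjusted p under 0.05. The smallest limma adjusted p was 1. That fit leaves differences between array numbers in its spread. A limma fit with the array number as a block also called 0 genes. It had 1289 genes at an unadjusted p under 0.05 and a smallest adjusted p of 0.184. The results below are therefore counts and values in arrays, and "lower" and "higher" describe measured values, not calls of a test.

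In both pairs 19 genes (0.0858% of all genes) were lower by 2-fold or more, and 17 (0.0767%) were higher by that much. With no limit on size, 5214 genes (23.5%) were lower and 5487 (24.8%) higher in both pairs, so that both directions were about equally frequent over all genes. Both knockout arrays lay below both wild-type arrays for 17 of the 19 lower genes (9.62% of all genes), and above them for 16 of the 17 higher genes (9.77%), which largely restates how these genes were chosen. Independently of the pairs, 74 genes (0.334%) had no overlap between genotypes and a mean at least 2-fold lower, and 46 genes (0.208%) had no overlap and a mean at least 2-fold higher. At the limit of 2-fold, Cts7 (-1.04 and -2.04 in pairs 1 and 2, log2) was just inside and Shcbp1l (-0.99 and -1.01) just outside. On the other side, Sycp1 (1.20 and 1.01) was just inside and Fbxw14 (1.18 and 0.98) just outside.

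**Figure D2:**
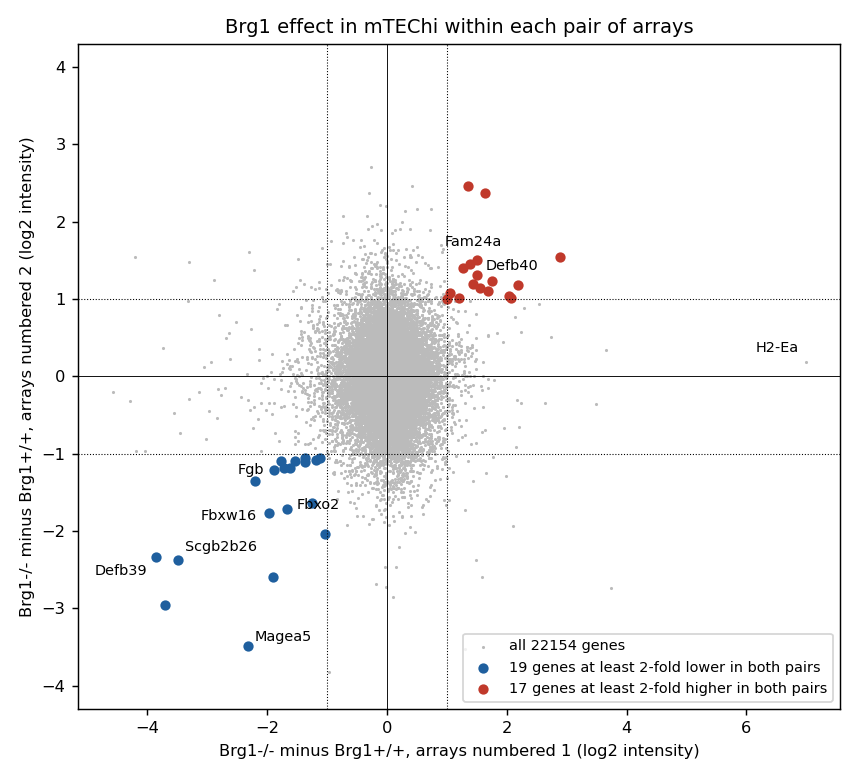
Difference between Brg1-/- and Brg1+/+ mTEChi within pair 1 (horizontal) and within pair 2 (vertical) for each of 22154 genes (log2 intensity); dotted lines mark a 2-fold difference. The 19 genes at least 2-fold lower in both pairs (blue) reach -3.85 in pair 1, the 17 higher genes (red) reach 2.89, and H2-Ea lies far to the right at 6.99 with 0.18 in pair 2.

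Of the 19 lower genes, 13 had a name under the naming rule, the others being predicted genes, clone names and olfactory receptors. Only 4 genes were at least 4-fold lower in both pairs: Scgb2b26, Defb39, Magea5 and the clone 5530400C23Rik, which lies outside that rule. No gene was at least 4-fold higher in both pairs. The 250 bases upstream of the start of the first 3 of these, and of Fbxo2, are shown because they are the regions where nucleosome position bears on initiation and because the members differ widely in CpG content (RefSeq, GRCm38.p6, written 5′ to 3′ on the gene's strand). Capitals mark each match, on either strand, to a TATA box (TATAAA), an AP-1 site (TGANTCA), a GC box (GGGCGG) or a CCAAT box (CCAAT). Their positions are chr7:33944986-33945235 (minus strand) for Scgb2b26, chr8:19064922-19065171 (minus) for Defb39, chrX:155061554-155061803 (minus) for Magea5 and chr4:148160418-148160667 (plus) for Fbxo2.
Scgb2b26: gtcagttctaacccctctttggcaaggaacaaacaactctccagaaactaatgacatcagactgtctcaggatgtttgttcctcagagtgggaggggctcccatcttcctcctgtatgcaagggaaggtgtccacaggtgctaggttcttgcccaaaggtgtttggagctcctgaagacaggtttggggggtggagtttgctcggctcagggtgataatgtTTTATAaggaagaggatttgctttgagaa
Defb39: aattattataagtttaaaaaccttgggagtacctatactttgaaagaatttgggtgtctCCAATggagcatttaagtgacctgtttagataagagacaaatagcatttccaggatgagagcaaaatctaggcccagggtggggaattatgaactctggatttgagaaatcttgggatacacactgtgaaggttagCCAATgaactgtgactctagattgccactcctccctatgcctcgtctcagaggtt
Magea5: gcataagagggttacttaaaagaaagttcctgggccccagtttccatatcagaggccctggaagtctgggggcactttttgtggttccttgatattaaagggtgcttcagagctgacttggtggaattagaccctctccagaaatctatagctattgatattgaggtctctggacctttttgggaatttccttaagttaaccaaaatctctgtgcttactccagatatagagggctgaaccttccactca
Fbxo2: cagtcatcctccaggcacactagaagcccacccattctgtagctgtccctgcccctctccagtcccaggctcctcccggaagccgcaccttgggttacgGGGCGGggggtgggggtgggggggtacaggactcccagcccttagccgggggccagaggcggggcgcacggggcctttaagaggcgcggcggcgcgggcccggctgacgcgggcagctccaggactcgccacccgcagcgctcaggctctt

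These windows hold 1 CpG in Scgb2b26, 1 in Defb39, 0 in Magea5 and 19 in Fbxo2. Over the 12 of 13 named lower genes with a RefSeq promoter, the median was 1.5 CpG (0 to 19), against 6.0 over all 27025 promoters of the same length. A TATA box was in 4 of these 12 (33.3%; 13.0% of all promoters), an AP-1 site in 1 (8.33%; 6.87%), a GC box in 3 (25.0%; 32.9%) and a CCAAT box in 4 (33.3%; 34.5%). The 3 of 4 named higher genes with a promoter had a median of 2.0 CpG (1 to 17). A TATA box was in 2 of these 3 (66.7%) and an AP-1 site in 1 (33.3%), so few CpG and a TATA box were not confined to the lower genes. These are matches of letters in short windows, and the differences in shares were not tested.

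Among the lower genes, secreted proteins other than enzymes are described first. Scgb2b26, a secretoglobin of the androgen-binding protein family made by salivary and lacrimal glands, read 6.55 and 5.51 in Brg1+/+ and 3.06 and 3.14 in Brg1-/- mTEChi. The genotypes did not overlap, the knockout arrays were nearly equal, and the mean was 7.62-fold lower (-2.93 ± 0.406, limma SE). Its unadjusted p of 0.000129 was the smallest of all 22154 genes in limma, with an adjusted p of 1. Defb39, a beta-defensin, an antimicrobial peptide known from the epididymis, read 6.00 and 5.33 in Brg1+/+ and 2.15 and 3.0 in Brg1-/- cells. It was 8.51-fold lower on average (-3.09 ± 0.654, limma SE), with both knockout arrays more than 2 log2 units below both wild-type arrays.

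Svs3a, a seminal vesicle secretory protein, read 5.10 and 5.54 in wild-type and 3.98 and 4.48 in knockout arrays, a mean difference of -1.09 ± 0.538. Prl8a2, a prolactin-related hormone of the decidua, read 4.81 and 5.84 against 3.56 and 4.2 (2.72-fold lower). Fgb, the beta chain of fibrinogen made by hepatocytes, read 8.02 and 7.15 against 6.31 and 5.96 (2.73-fold lower, -1.45 ± 0.352). In each of these genes the wild-type and knockout arrays did not overlap.

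Enzymes and an inhibitor of proteases formed another group. Ces1h, a carboxylesterase, read 7.38 and 7.51 in Brg1+/+ and 5.50 and 6.30 in Brg1-/- mTEChi (2.92-fold lower, -1.54 ± 0.358). Cts7, a cathepsin of the placental cluster, read 4.67 and 5.17 against 3.63 and 3.13, with no overlap. Mcpt4, a chymase of mast cells, read 7.06 and 5.82 against 5.70 and 4.71. Knockout array 1 came close to wild-type array 2, and array 1 was higher than array 2 in both genotypes. Its mean difference was -0.62 without wild-type array 1 and -0.74 without knockout array 2. Csta2, a gene of the cystatin A cluster of cysteine protease inhibitors, read 4.27 and 5.37 against 2.90 and 4.31, and knockout array 2 lay above wild-type array 1. Leaving out each array in turn gave a mean difference between -0.51 (without knockout array 1) and -1.92 (without knockout array 2).

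Intracellular proteins made up the rest. Magea5, a melanoma antigen family gene on the X chromosome that is normally silent outside the germ line, read 6.27 and 5.50 in Brg1+/+ and 3.95 and 2.01 in Brg1-/- mTEChi. It was 7.49-fold lower (-2.90 ± 0.649, limma SE), with knockout array 2 far below knockout array 1, and without knockout array 2 the mean difference was -1.94. Fbxo2, the F-box protein that directs ubiquitin ligases to glycoproteins, read 7.74 and 8.48 against 6.08 and 6.76. The pairs gave nearly the same difference, -1.66 and -1.72, and the mean was 3.23-fold lower. Fbxw16, an F-box and WD40 gene of a mouse-specific cluster on chromosome 9, read 5.96 and 5.38 against 4.00 and 3.61 (3.64-fold lower, -1.86 ± 0.456). Tlcd4, a membrane protein with a TLC domain, read 6.04 and 4.66 against 4.86 and 3.58, so that the genotypes overlapped although each pair was at least 2-fold lower. Its mean difference was -0.44 without wild-type array 1 and -0.49 without knockout array 2.

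**Figure D3:**
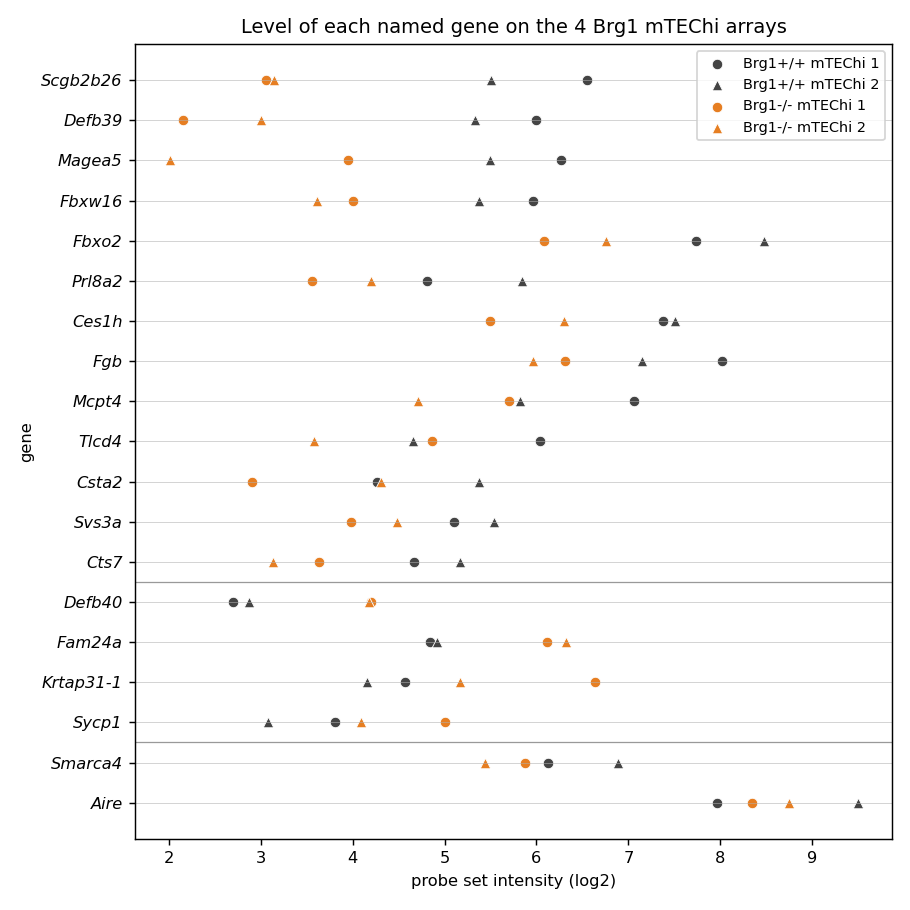
Levels of the 13 named lower genes, the 4 named higher genes, Smarca4 and Aire on the 4 Brg1 mTEChi arrays (log2 intensity; dark, Brg1+/+; orange, Brg1-/-; circles, array 1; triangles, array 2). Scgb2b26, Defb39 and Magea5 show the widest gaps between genotypes, with mean differences of -2.93, -3.09 and -2.90, and Tlcd4, Csta2 and Aire overlap.

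Among the 17 higher genes only 4 had a name under the rule, and the rest were clone names, predicted genes, small RNAs and an olfactory receptor. Defb40, a beta-defensin on chromosome 8 like Defb39, read 2.70 and 2.87 in Brg1+/+ and 4.2 and 4.18 in Brg1-/- mTEChi. It was 2.65-fold higher (1.40 ± 0.416, limma SE), in the opposite direction to Defb39, with the arrays of each genotype close together. All these Defb40 values were dim, below the medians of the arrays (5.07 to 5.27). Fam24a read 4.84 and 4.92 against 6.11 and 6.32 (2.52-fold higher, 1.34 ± 0.419), again with the arrays of each genotype close together. Krtap31-1, a keratin-associated protein of hair, read 4.57 and 4.16 against 6.64 and 5.17, and its mean difference was 0.80 without knockout array 1 and 2.28 without knockout array 2. Sycp1, a component of the synaptonemal complex of meiosis, read 3.81 and 3.08 against 5.01 and 4.09 (2.15-fold higher). Its wild-type array 1 came close to its knockout array 2 without overlap, and its values also lay below the array medians.

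The higher genes outside the rule are named after their values were seen. The clone AY761185 read 8.70 and 8.08 against 10.33 and 10.45, and Gm15056 read 8.84 and 7.92 against 10.20 and 10.38. Both are on chromosome 8, and both were higher by more in pair 2 than in pair 1. The Cajal body RNA Scarna17 read 4.74 and 5.52 against 7.63 and 7.07, and the small nucleolar RNA Snora7a read 4.68 and 5.27 against 6.71 and 6.31. In mTEClo the first of these RNAs was lower without Brg1 by 1.32 and the other higher by 0.16, so the small RNAs did not share a direction there. Of 79 measured small nucleolar and Cajal body RNAs, 25 were higher in both mTEChi pairs (24.8% over all genes) and 16 lower (23.5%). Their medians were 0.05 in pair 1 and 0.03 in pair 2. Mir449c read 6.11 and 5.68 against 7.79 and 6.79, while in mTEClo it was lower without Brg1 by 2.59. Whether the Mir449c probe set reads the mature microRNA or a longer transcript was not given in the sources used here. A change in the mature forms is therefore not shown. The seed, bases 2 to 8, decides which transcripts a microRNA pairs with. The mature forms of Mir449c are shown with the seed in capitals (RefSeq, GRCm38.p6, chr13:113036008-113036028 and chr13:113036049-113036070, plus strand).
mmu-miR-449c-5p: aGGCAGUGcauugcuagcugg
mmu-miR-449c-3p: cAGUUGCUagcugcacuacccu

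The same genes were read on arrays that the comparison did not use. In the single mTEClo pair of the Brg1 line, 3 of the 19 lower genes were again at least 2-fold lower (1.27% of all genes) and 0 were at least 2-fold higher (1.47% of all genes), with a median difference of -0.24 against -0.01 over all genes. The 3 were Prl8a2 (lower by 2.15 on the log2 scale), Csta2 (by 2.26) and the clone 4930556N09Rik (by 1.10). The genes with the widest gaps in mTEChi differed less there: Scgb2b26 differed by -0.38, Defb39 by -0.30 and Magea5 by 0.57. In Aire+/+ cells 13 of the 19 lower genes read at least 2-fold lower in mTEClo than in mTEChi. Whether low levels in mTEClo limited the differences there was not tested. Of the 17 higher genes, 4 differed by 2-fold or more in each direction in mTEClo. With 1 array a group the mTEClo difference has no replicate check. H2-Ea differed in this pair as in pair 1, so genetic background cannot be told apart from genotype here either. The difference between the mTEChi and mTEClo effects passed the limma test for no gene (0 of 22154, 0.0%; 296 genes, 1.34%, at an unadjusted p under 0.05), with an adjusted p of 1 for each of the 17 named genes.

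Most lower genes were higher in mTEChi than in mTEClo of the Aire line. In Aire+/+ cells, 13 of the 19 (68.4%) were at least 2-fold higher in mTEChi than in mTEClo, against 5.52% of all genes, with a median difference of 1.64. For comparison, 9 of the 17 higher genes (52.9%) met the same limit, with a median of 1.06, so a higher level in mTEChi was not confined to one direction. The median level of the lower genes was 5.66 in Brg1+/+ mTEChi, against 5.40 over all genes. In Brg1-/- mTEChi it was 3.88, against 5.39 over all genes. These levels include the values by which the genes were chosen, and 11 of the 19 were left when dim genes were filtered out.

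The lower genes overlapped with those lower without Aire. At least 2-fold lower in both pairs of the Aire line were 530 genes (2.39%), and these included 10 of the 19 genes lower without Brg1 (52.6% of the 19, and 1.89% of the 530). Of the 19, 13 were at least 2-fold higher in Aire+/+ mTEChi than in mTEClo. The share among all genes with such a level in mTEChi was not computed. None of the 19 was at least 2-fold higher in both Aire pairs (0.316% of all genes). The medians of the 19 were -1.48 and -1.45 in Aire pairs 1 and 2, against 0.07 and 0.05 over all genes. Mcpt4 differed by -3.60, Svs3a by -3.25, Fgb by -3.20, Scgb2b26 by -3.08 and Defb39 by -2.94 without Aire. Fbxo2 went the other way, higher by 0.59 without Aire and lower by 1.69 without Brg1. Of the 17 genes higher without Brg1, 2 lay 2-fold or more below wild type in both Aire pairs, and 2 lay as far above it. Defb40 was higher by 1.40 without Brg1 but lower by 2.49 without Aire, and the clone 1700003P14Rik was higher in both, by 1.68 and 3.28. The Aire comparison shares no array with the Brg1 comparison.

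**Figure D4:**
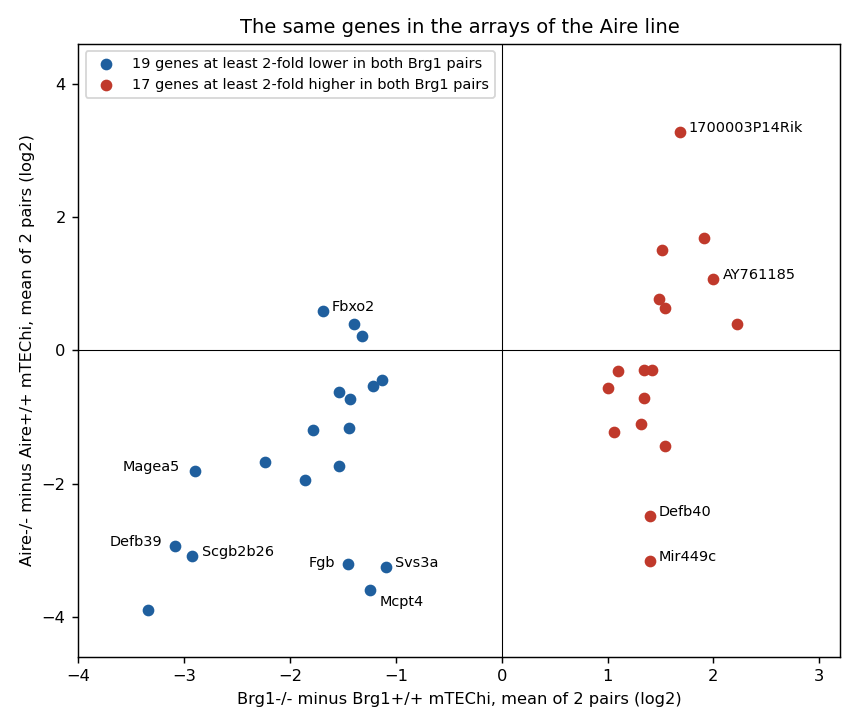
Mean difference without Brg1 (horizontal) against mean difference without Aire (vertical) in mTEChi, log2 intensity, for the 19 genes lower (blue) and the 17 genes higher (red) in both Brg1 pairs. Most blue points lie below 0 on the vertical axis, down to -3.60 for the named gene Mcpt4, with Fbxo2 above 0 at 0.59, while the red points spread to both sides.

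Lists of tissue and pathway genes were read by how many members had the same direction in both pairs, beside 23.5% lower and 24.8% higher over all genes. No member of any list passed the limma test. Secretory gland and liver lists leaned lower. Of 21 genes of salivary, lacrimal and mammary glands, 14 (66.7%) had lower and 3 (14.3%) higher values in both pairs, with medians of -0.36 and -0.26. In 6 of them both knockout arrays lay below both wild-type arrays (9.62% over all genes). Klk1b9, a glandular kallikrein, read 11.54 and 11.65 in Brg1+/+ and 10.68 and 10.68 in Brg1-/- mTEChi (-0.92 ± 0.293, limma SE). Csn1s1, a casein of milk, read 5.91 and 6.29 against 5.07 and 5.51. Dcpp1 and Dcpp2, secreted proteins of the sublingual demilune cells, were lower by means of 0.66 and 0.70 on the log2 scale. Klk1b and Dcpp genes have near-identical copies, so the probe sets may not tell them apart. Most of the list differed by less than 2-fold, and Csn2, another casein, was within 0.26 in each pair.

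Of 23 liver genes, 12 (52.2%) were lower and 2 (8.7%) higher in both pairs, with medians of -0.26 and -0.46. In 9 of them both knockout arrays lay below both wild-type arrays (9.62% over all genes). Fgb was the only one at least 2-fold lower in both pairs. Fgg, the fibrinogen gamma chain, read 7.83 and 8.04 against 6.75 and 7.58, whereas Fga, the alpha chain, read 3.95 and 4.53 against 4.50 and 3.97 and overlapped. Mup6, a major urinary protein, read 9.37 and 9.54 against 8.51 and 8.65, and Cyp1a2, a cytochrome P450 of hepatocytes, read 7.45 and 7.69 against 6.99 and 6.68. The fibrinogen chains, which assemble into 1 protein, did not share a direction in pair 1. Fga was dim, below the medians of these arrays (5.07 to 5.27), so its direction is uncertain.

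Other tissue lists differed in their lean. Of 16 pancreas genes, 7 (43.8%) were lower and 2 (12.5%) higher in both pairs, and Reg1, a lectin of acinar cells, read 11.08 and 10.91 against 10.87 and 10.05. Of 16 tuft cell genes, 8 (50%) were lower and 2 (12.5%) higher. Only 1 of the 16, Plcb2, had both knockout arrays below both wild-type arrays (9.62% over all genes). Of 18 muscle genes, 4 (22.2%) were lower and 8 (44.4%) higher in both pairs, and of 18 brain and nerve genes, 3 (16.7%) were lower and 7 (38.9%) higher. Mylpf, a fast muscle myosin light chain, read 10.01 and 8.74 against 10.30 and 10.28, and Pmch, the precursor of melanin-concentrating hormone, read 8.09 and 8.36 against 8.64 and 8.76. Tissue-restricted genes therefore did not share 1 direction.

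Of 15 genes of the p53 response and apoptosis, 8 (53.3%) were higher and 2 (13.3%) lower in both pairs. In 7 of them both knockout arrays lay above both wild-type arrays (9.77% over all genes). Cdkn1a, which encodes the cell cycle inhibitor p21, read 10.48 and 10.69 in Brg1+/+ and 11.11 and 11.23 in Brg1-/- mTEChi (0.58 ± 0.25, limma SE). Bcl2, an inhibitor of apoptosis, read 7.17 and 7.09 against 8.21 and 7.52, and Ccng1, a p53 target, read 9.50 and 10.01 against 10.12 and 10.26. Bcl2 and Mcl1, also higher in both pairs, protect cells from apoptosis, so the list joins genes of opposed roles. Mdm2, the p53 ubiquitin ligase, read 6.36 and 6.82 against 6.34 and 6.63. Of 22 cell cycle genes, 1 (4.55%) was lower and 0 higher in both pairs. Pair 1 had 10 of these genes higher (52.6% over all genes) and pair 2 had 10 higher (47.5%), so the pairs mostly opposed each other.

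The pairs differed for genes of mTEC maturation. Of 16 such genes, 11 were higher in pair 1 (52.6% over all genes) but 14 were lower in pair 2 (51.3% over all genes). The medians were 0.06 and -0.36, and 4 genes (25.0%) were lower and 1 (6.25%) higher in both. Cd274, which encodes the inhibitory ligand PD-L1, read 7.94 and 7.82 against 7.61 and 6.92. Ciita, the transactivator of MHC class II genes, read 6.62 and 6.94 against 6.43 and 6.56. Of 26 SWI/SNF subunit genes, 8 (30.8%) were lower and 4 (15.4%) higher in both pairs. Smarca4 was the only 1 of the 26 with both knockout arrays below both wild-type arrays (9.62% over all genes). Smarca2, the alternative ATPase of the complex, read 7.47 and 6.43 against 7.74 and 6.74, higher by 0.27 and 0.31, while arrays 1 and 2 differed by more than that within each genotype. Of 17 genes for partners of Aire, 5 (29.4%) were lower and 5 (29.4%) higher in both pairs. Of 18 thymic epithelial identity genes, 7 (38.9%) were lower and 3 (16.7%) higher, and their mean level lay between 7.14 and 7.72 on the 4 arrays.

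Lists of other signals showed a split between pairs. Of 21 genes of NF-kB and TNF receptor signalling, 14 were higher in pair 1 (52.6% over all genes). In pair 2, 18 were lower (51.3% over all genes), leaving 5 (23.8%) lower and 1 (4.76%) higher in both. Of 18 interferon response genes, 6 (33.3%) were higher and 1 (5.56%) lower in both pairs, and Bst2, an antiviral membrane protein, read 10.97 and 11.29 against 11.42 and 11.67. Of 15 thymocyte genes, 10 were lower in pair 1 (46.2% over all genes) and 14 higher in pair 2 (47.5% over all genes). Pair 2 holds the array with the highest summed thymocyte signal.

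**Figure D5:**
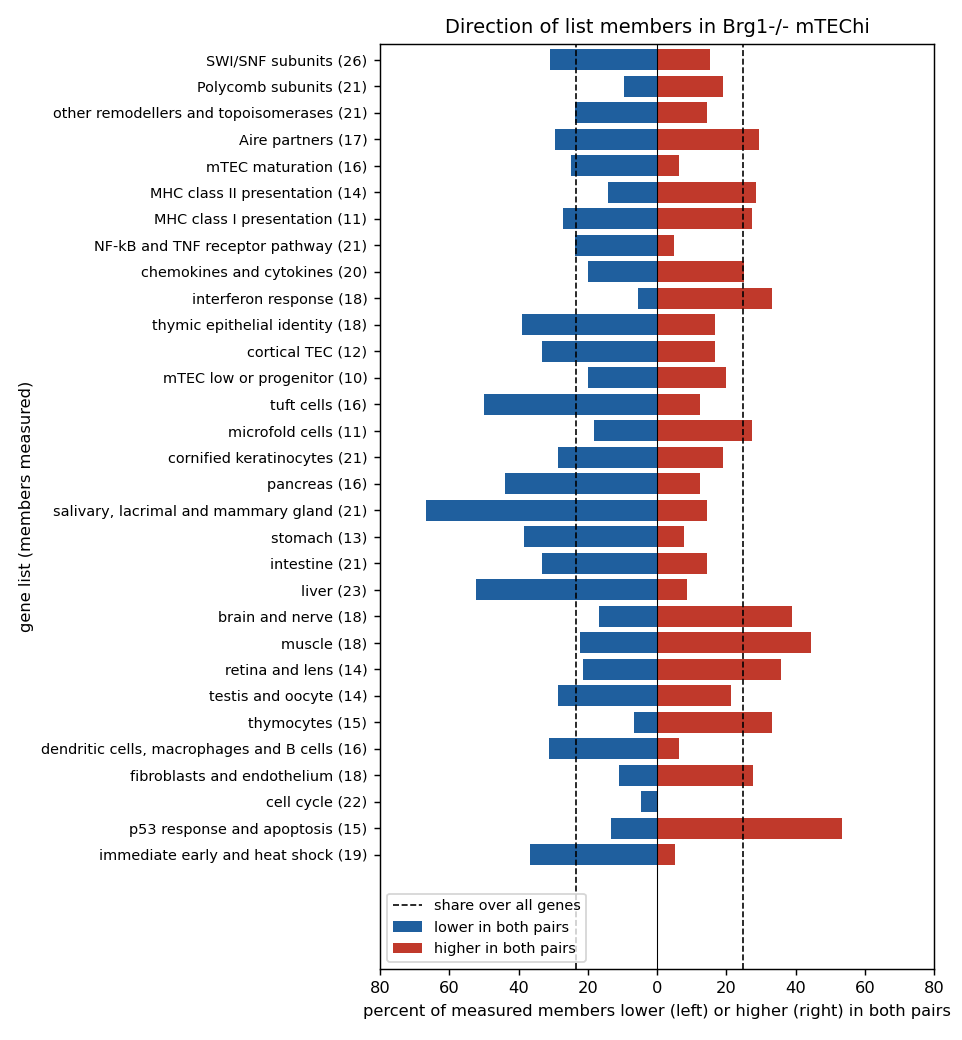
Percent of the measured members of each list that were lower (left, blue) or higher (right, red) in both pairs in Brg1-/- mTEChi, for lists with at least 10 measured members; dashed lines give the shares over all genes, 23.5% and 24.8%. Salivary, lacrimal and mammary gland genes reach 66.7% lower, liver genes 52.2% lower, and p53 and apoptosis genes 53.3% higher.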

How the data were processed

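The table deposited by the authors holds linear intensities of 33732 probe sets on 12 arrays. The submitters' processing notes list the tools RMA, Transcriptome Analysis Console and Affymetrix Expression Console; their versions and roles and any detection threshold are not given in the sources used here. Each deposited intensity is 2 raised to a number with 2 decimals, so log2 values carry a step of 0.01, and background compresses differences of dim genes.

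Intensities were taken to log2 with no further normalization. The platform annotation gave 1 symbol for 23491 probe sets, several for 1811 and none for 8430. The probe set with the highest mean over the 12 arrays stood for a gene, which set 1337 aside and left 22154 genes, of which 21968 matched RefSeq (GRCm38.p6). Groups came from the titles. One limma model (R 4.3.3, limma 3.58.1, lmFit and eBayes) held 8 group means for the 12 arrays and had 4 residual degrees of freedom, so the spread was pooled over the groups of 2. Tests were two-sided, with Benjamini-Hochberg adjustment over all genes, and the steps were tested on simulated data. Precision is limited by the number of arrays.

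Named were Smarca4, Aire, up to 15 genes each way at least 2-fold different in both pairs, ordered by the smaller difference, and up to 4 members a list; predicted, clone, small RNA and receptor names were left out. Other genes, the families of genes and H2-Ea were picked after their values were seen. The comparison, members and 33 gene lists were chosen with earlier results of these data known. Alternatives changed the scaling, a filter on dim genes, the probe set per gene, the samples and covariates of the fit, the fold limit and the arrays used.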

Additional observations from a re-analysis of the deposited data

How the results depend on the processing

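No gene passed limma in any fit of all 4 arrays; leaving out 1 array gave 0 to 1 genes, the 1 being H2-Ea without wild-type array 2 (limma adjusted p = 0.02). No label says that an array number marks an animal or day, so the pairs are pairs by number only and the test was fitted without them. The differences between arrays 1 and 2 in Brg1+/+ and Brg1-/- cells correlated at 0.552 over 22154 genes. With the replicate block limma still called 0 genes, with 1289 at an unadjusted p under 0.05 and a smallest adjusted p of 0.184. The 19 lower and 17 higher genes of both pairs became 11 lower with dim genes filtered out, 41 and 48 with every probe set on its own, 167 and 140 at 1.5-fold, and 4 and 0 at 4-fold. Pair 1 alone gave 344 lower and 221 higher genes and pair 2 alone 564 and 395, alternatives chosen after seeing the data. The 74 genes lower without overlap became 40 with the filter, 147 with every probe set, 433 at 1.5-fold and 12 at 4-fold, and the 46 higher became 122, 360 and 2 under the latter 3. Leaving out 1 array asks less of a gene and gave 275 to 683 lower and 143 to 671 higher; counts in both pairs cannot be made without an array. The other alternatives kept these counts within 1.5 times. None of the 17 named lower and higher genes changed sign under any alternative, which largely restates how they were chosen. Of 1080 alternative values of all 135 named genes, 75 changed sign, in 45 genes. Background over dim probe sets is unknown, so levels near the lowest intensities limit what a fold can show.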

Other observations

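Families picked after their values were seen add other genes, and their counts stand beside 23.5% lower and 24.8% higher in both pairs over all genes. Of 19 measured Scgb1b and Scgb2b genes, which encode androgen-binding protein subunits, 7 were lower and 5 higher in both pairs, and 4 had no overlap with a mean at least 2-fold lower (0.334% over all genes). Besides Scgb2b26 these were Scgb2b27 (8.46 and 6.20 in Brg1+/+, 4.27 and 5.24 in Brg1-/- mTEChi), Scgb2b7 (8.52 and 7.83 against 5.51 and 7.02) and Scgb2b20 (7.13 and 5.91 against 4.16 and 5.46). In these 3 genes the difference in pair 1 was -4.19, -3.01 and -2.97 and in pair 2 -0.96, -0.81 and -0.45. Most of the difference therefore lay in pair 1, a pair that also differed in H2-Ea. Near-identical copies may share probes in this family. Of 6 gasdermin C genes, which encode pore-forming proteins, 5 were lower and 0 higher in both pairs, and Gsdmc2 read 5.72 and 6.93 against 5.11 and 5.31. Of 8 Ces1 carboxylesterases, 5 were lower and 0 higher in both pairs. Of 42 beta-defensins, 10 were lower and 12 higher in both pairs, near the shares over all genes. Among the higher ones Defb42 read 9.72 and 9.52 against 10.58 and 10.93, and it was higher without Brg1 by 2.02 in mTEClo and without Aire by 1.18 in mTEChi.

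Genes around Sp100, a nuclear body protein gene on chromosome 1, were mostly higher. Of Sp100 and its measured neighbours, 5 genes in the RefSeq order, 4 were higher in both pairs (24.8% over all genes) and none lower, with medians of 0.45 in pair 1 and 1.23 in pair 2. Their median was also higher without Aire in mTEChi, by 0.76, and without Brg1 in mTEClo, by 0.85. Sp100 read 9.15 and 7.92 in Brg1+/+ and 9.87 and 9.82 in Brg1-/- mTEChi, and was higher by 0.87 in mTEClo. Csprs, a gene that RefSeq also places on chromosome 1, read 8.68 and 8.50 against 9.60 and 10.11, and Gm7609 read 7.45 and 7.12 against 9.20 and 8.35. Both were also higher in mTEClo, by 0.86 and 1.27, in a pair that also differed in H2-Ea. Copies in this region are near identical, so the probe sets are not independent.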
